A study of Homo sapiens
Mus musculus and Homo sapiens with 12 samples.

Results

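The human genes that encode the subunits of the mitochondrial respiratory chain were followed in fused and unfused fibroblasts by polyA RNA sequencing. Members were all human protein coding genes whose current symbol starts with NDUFA, NDUFB, NDUFC, NDUFS, NDUFV, SDHA to SDHD, UQCR, COX4 to COX8 or ATP5, together with CYC1. This rule took 101 of 20056 human coding genes. They comprise 37 genes of complex I, 4 of complex II, 10 of complex III, 17 of complex IV and 18 of complex V. The same prefixes also took 12 assembly factors, the ATP synthase inhibitor ATP5IF1 and 2 readthrough genes, which are counted apart from the subunits.

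Heterokaryons were made by fusing D3 mouse embryonic stem cells with MRC5 human lung fibroblasts, and were sorted by flow cytometry at day 1, day 2 and day 3, with 2 libraries per day. A heterokaryon holds nuclei of both species in 1 cytoplasm. Co-cultures (2 libraries) held the same 2 kinds of cells grown together and not fused, and the homokaryon (1 library) held fibroblasts fused with fibroblasts. Unfused fibroblasts (3 libraries) were the remaining control. The labels name no genetic change and no drug in any group. They describe heterokaryons as transient, with separate nuclei and without a return to the cell cycle. No label says whether replicates came from separate cultures, so the spread behind each p-value may be technical. Only human transcripts were analysed. The labels do not say how reads of similar human and mouse transcripts were told apart. In bulk RNA, fewer cells of a type and less RNA per cell cannot be told apart.

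The deposited values, 1 per transcript, are taken as RPKM, a number of reads scaled by the length of the transcript and the size of the library. That unit is inferred from the values. A gene's level is the sum of its coding transcripts. Read totals are unknown, so no interval that needs depth is given. Each table stops at a different point in accession order, past which a gene is not covered rather than 0. Of the members, 72 were fully covered in at least 1 library, 15 only in part and 14 not at all. Day 1 and co-culture shared 65 covered members, day 2 and co-culture 32, and day 3 and co-culture 52. The homokaryon covered 65, unfused fibroblast replicate 2 covered 32 and replicate 1 covered 2, while replicate 3 held no human transcript. Comparisons with unfused fibroblasts therefore rest on replicate 2 for nearly all members.

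Heterokaryon replicates of day 1 and day 3 resembled each other less than the co-culture replicates did, while those of day 2 were close to co-culture. Across genes, Pearson's r of log2(RPKM + 1) was 0.85 between the day 1 libraries, 0.92 at day 2 and 0.88 at day 3, against 0.93 between the co-cultures. Of the fibroblast markers, 7 of 12 were covered in all 8 heterokaryon and co-culture libraries. Their summed level was 7013 and 7714 RPKM at day 1, 4645 and 5206 RPKM at day 2, 6675 and 6839 RPKM at day 3, 6863 and 6939 RPKM in co-cultures, 15809 RPKM in the homokaryon and 7562 RPKM in unfused fibroblast replicate 2. At day 2, 6 of the 7 lay below both co-cultures and 2 were called lower, and the part of this in the members' levels was not tested. Of the human stem cell markers, 4 of 11 were covered in these 8 libraries, with a summed level of at most 1.89 RPKM in any library, and SOX2 was at 0 in all of them. A further one, PODXL, which is not specific to stem cells, could be tested at day 1 only and was called higher than in co-culture, with a log2 fold change of 3.85. Of the epithelial markers, 3 of 5 were covered, none was at 0 throughout, and their summed level was 133 and 88.6 RPKM at day 1, 260.3 and 563 RPKM at day 2, 585 and 339 RPKM at day 3, and 5.94 and 18.7 RPKM in co-cultures. Their part in the members' levels was not tested. Endothelial markers summed to at most 2.22 RPKM in any library.

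The respiratory chain sits in the inner mitochondrial membrane. Complex I (NADH dehydrogenase) and complex II (succinate dehydrogenase) pass electrons to ubiquinone, complex III passes them to cytochrome c and complex IV (cytochrome c oxidase) hands them to oxygen. Complexes I, III and IV pump protons, and complex V (ATP synthase) lets them flow back to make ATP. All subunits of complex II and most subunits of the other complexes are encoded in the nucleus, and the transcripts of the remaining subunits come from mitochondrial DNA. How far a cell relies on the chain or on glycolysis differs between cell types and was not measured here.

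Several members have near-identical relatives, which limits what a transcript level says about 1 gene. 1 such pair was UQCRH, the acidic hinge protein of complex III, and its retrocopy UQCRHL, both on chromosome 1. Their coding sequences, from the GENCODE 29 annotation on GRCh38 and given 5′ to 3′ in coding direction, are 276 bases each and 98.6% identical. The 4 bases that differ are in capitals, and the pair is shown because the 2 genes had very different levels.
UQCRH: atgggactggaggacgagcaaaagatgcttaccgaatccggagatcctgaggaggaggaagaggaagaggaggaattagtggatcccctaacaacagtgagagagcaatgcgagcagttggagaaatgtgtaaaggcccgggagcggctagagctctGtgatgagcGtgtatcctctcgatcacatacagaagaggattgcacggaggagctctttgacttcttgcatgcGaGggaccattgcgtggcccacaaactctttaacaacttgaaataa
UQCRHL: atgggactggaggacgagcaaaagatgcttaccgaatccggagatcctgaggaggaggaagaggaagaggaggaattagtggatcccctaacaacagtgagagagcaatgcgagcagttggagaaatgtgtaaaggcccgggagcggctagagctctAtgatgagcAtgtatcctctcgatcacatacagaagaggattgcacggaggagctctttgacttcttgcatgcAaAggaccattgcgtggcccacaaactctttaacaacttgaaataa
UQCRH was at 387 and 154 RPKM at day 1 and at 205 RPKM in co-culture replicate 2, the only libraries that covered it. UQCRHL was covered in all 11 libraries with human values and had no listed value, taken as 0, in 8 of them, with 0.860 RPKM in day 3 replicate 2, 1.82 RPKM in co-culture replicate 1 and 0.269 RPKM in unfused fibroblast replicate 1. The 2 genes were thus separated in these values although 53.7% of the 50-base words of either coding sequence occur in the other.

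**Figure D1:**
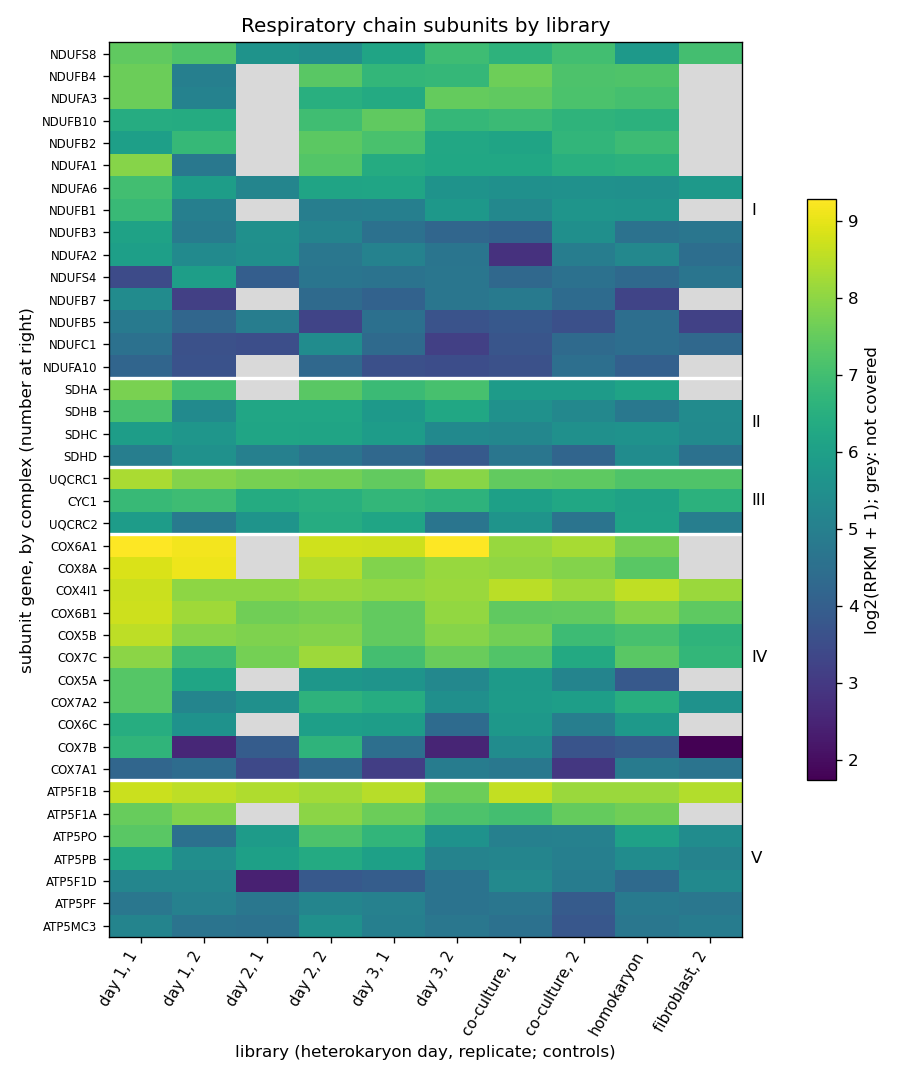
Heat map of log2(RPKM + 1) for the 40 subunit genes tested at day 1 and covered in at least 8 of the 10 libraries shown (rows, grouped by complex) in each library (columns), with grey for genes that a library did not cover. COX6A1 and COX8A reach their highest values in heterokaryons, and the 2 day 1 columns differ in many rows.

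Levels per transcript length differed between subunits of the same complex. Among the genes covered in all 8 heterokaryon and co-culture libraries, the highest means were found for ATP5F1B, the catalytic beta subunit of ATP synthase, at 329 RPKM, and COX4I1, the ubiquitous form of a regulatory subunit of complex IV, at 302 RPKM. COX6B1, a complex IV subunit on the side of the intermembrane space, averaged 240 RPKM. UQCRC1, a core protein of complex III, averaged 218 RPKM and CYC1, the cytochrome c1 haem protein, 93.5 RPKM. In complex I the highest were NDUFS8, an iron sulfur subunit, at 103 RPKM and NDUFA6, an accessory subunit, at 62.9 RPKM. Among the genes of complex II covered in all 8, SDHB, its iron sulfur subunit, led at 66.9 RPKM, before SDHC, a membrane anchor, at 53.9 RPKM. Genes that some of these libraries did not cover are outside this ranking, and several were higher. Wherever covered in these libraries, SDHA stood above SDHB, COX6A1 and COX8A above COX6B1, and NDUFS5 above NDUFS8. The second of complex V was ATP5PO, part of the peripheral stalk, at 74.8 RPKM.

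Where isoforms exist, the ubiquitous form was measured above the muscle form in the covered libraries. COX6A2, the heart and muscle form, had no listed value, taken as 0, in the 5 libraries that covered it, all of which held COX6A1 at 214 RPKM or more. COX7A1, the muscle form of its pair, ran at 6.83 to 28.7 RPKM in the 8 heterokaryon and co-culture libraries, where COX7A2 ran at 35.2 to 157 RPKM. In no library did COX7A1 exceed COX7A2. Of the 3 genes for the identical mature c subunit of ATP synthase, ATP5MC2 was at 404 and 384 RPKM at day 1 and 538 and 502 RPKM in co-cultures, ATP5MC1 at 158 and 186 RPKM against 167 and 124 RPKM, and ATP5MC3 at 34.5 and 24.1 RPKM against 22.6 and 12.7 RPKM. The order ATP5MC2, ATP5MC1, ATP5MC3 was the same in these 4 libraries and in the homokaryon. COX4I2, COX8C and ATP5IF1 were not covered, and COX6B2 was covered only in part.

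At day 1 after fusion, most measured subunits stood above co-culture, but few passed the test. Of 62 members tested with limma against all 3552 human genes tested, 3 passed an adjusted p of 0.05 (Benjamini-Hochberg over all genes tested), and these were SDHA, COX8A and COX6A1, all higher. That is a smaller share than over all genes, of which 9.85% were called in either direction and 5.72% were called higher. At an unadjusted p under 0.05 there were 12 members, all higher. The direction was more one-sided: 50 of 62 members had a positive log2 fold change, against 49.7% of all genes, and the members' median was 0.45 against 0.00 over all genes. Both day 1 libraries were above both co-cultures for 26 members, where the share over all genes was 28.1%, and below both for 3 members, where it was 26.1%.

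The members share short transcripts, and other short or abundant gene groups also had positive medians at day 1. The tested members had a median transcript length of 886 bases, against 2615 bases over all genes. Tested genes under 1000 bases that are not members had a median log2 fold change of 0.31, with 145 of 249 positive. Cytosolic ribosomal proteins had a median of 0.68, with 45 of 49 positive, and proteasome subunits had 0.20, with 18 of 28 positive. Cycling cell markers, of which 4 of 6 were covered and none was at 0 throughout, also differed: their summed level was 102 and 108 RPKM at day 1 against 3.47 and 5.25 RPKM in co-cultures, with 1.62 RPKM in the homokaryon and 54.8 RPKM in unfused fibroblast replicate 2. The part of transcript length or of cell cycle in the members' levels was not tested.

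The 2 day 1 libraries contributed unequally. Replicate 1 was above replicate 2 for 48 of the 64 members covered in both at 1 RPKM or more in either, with a median difference of 0.59 on the log2 scale. Against the co-culture mean, 54 of 62 members were higher in replicate 1 and 39 in replicate 2, and 35 were higher in both. The members' median log2 fold change was 0.31 without replicate 1 and 0.76 without replicate 2.

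**Figure D2:**
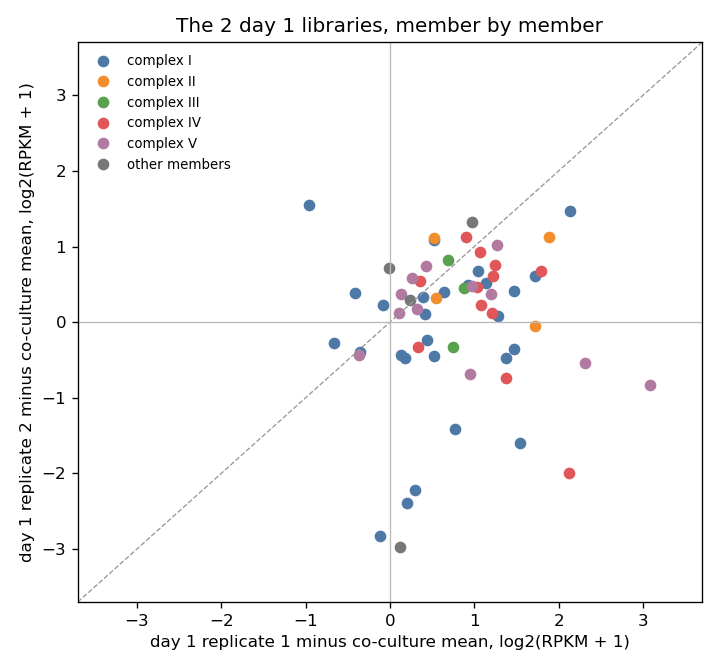
Each point is 1 of the 62 members tested at day 1, placed by its log2(RPKM + 1) minus the co-culture mean in day 1 replicate 1 (horizontal) and replicate 2 (vertical), coloured by complex; the dashed line marks equal values. Most points lie right of 0 (54) and fewer lie above 0 (39), with a tail of members low in replicate 2.

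In complex II, all 4 subunits had positive log2 fold changes at day 1, with a median of 0.82. SDHA, the flavoprotein that oxidises succinate, was at 216 and 127 RPKM at day 1, 161 RPKM in day 2 replicate 2, 117 and 135 RPKM at day 3, and 57.4 and 57.6 RPKM in co-cultures. Every heterokaryon library that covered SDHA was above both co-cultures, and the homokaryon, at 68.6 RPKM, was close to the co-cultures. The log2 fold change was 1.51 ± 0.30 (SE) at day 1 with an adjusted p of 0.0266 by limma, and 1.11 ± 0.31 at day 3 with an adjusted p of 0.113. Day 3 minus day 1 was -0.40 ± 0.31 (adjusted p = 0.569). Day 2 could not be tested for SDHA, COX8A and COX6A1, since the table of day 2 replicate 1 stops before them. SDHA was called in 1 of the 4 fits that leave out 1 library, with adjusted p from 0.0337 to 0.182. Of its coding 50-base words, 25.4% also occur in SDHAP3 or other pseudogenes, so reads could be shared with them.

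The other subunits of complex II did not pass the test. SDHB was at 138 and 39.6 RPKM at day 1, 72.2 and 72.8 RPKM at day 2, 56.0 and 73.8 RPKM at day 3, and 45.8 and 37.0 RPKM in co-cultures. Day 2 and day 3 lay above both co-cultures, and day 1 replicate 2 fell between them. SDHC was at 59.8 and 50.8 RPKM at day 1, 71.5 and 69.9 RPKM at day 2, 58.9 and 38.8 RPKM at day 3, and 36.3 and 45.4 RPKM in co-cultures, with a log2 fold change of 0.79 ± 0.30 at day 2 (adjusted p = 0.150, limma). SDHD, the other membrane anchor, had log2 fold changes of 0.82 at day 1, 0.38 at day 2 and -0.37 at day 3. Pseudogenes hold 44.0% of the coding words of SDHC and 66.8% of those of SDHD.

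Complex IV contributed the other 2 calls, and all 12 of its tested subunits had positive log2 fold changes at day 1, with a median of 0.71. COX8A, a small membrane subunit, was at 467 and 544 RPKM at day 1, 355 RPKM in day 2 replicate 2, 229.9 and 279 RPKM at day 3, and 262 and 236 RPKM in co-cultures. Day 1 lay above every other library, and day 3 overlapped co-culture. Its log2 fold change was 1.02 ± 0.22 at day 1 (adjusted p = 0.0336, limma) and 0.03 ± 0.23 at day 3 (adjusted p = 0.978), and day 3 was 0.99 ± 0.23 below day 1 with an adjusted p of 0.0882. An overlapping gene annotation shares 41.0% of the coding words of COX8A.

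COX6A1, the ubiquitous form of subunit VIa, was at 625 and 565 RPKM at day 1, 427 RPKM in day 2 replicate 2, 421 and 618 RPKM at day 3, and 277 and 317 RPKM in co-cultures. All heterokaryon libraries that covered it stood above both co-cultures and above the homokaryon, at 214 RPKM. The log2 fold change was 1.0 ± 0.25 at day 1 (adjusted p = 0.0497, limma) and 0.78 ± 0.25 at day 3 (adjusted p = 0.161). COX8A and COX6A1 were not called in any of the 4 fits that leave out 1 library, in which their adjusted p ran from 0.0747 to 0.232 and from 0.112 to 0.271. Reads of COX6A1 are hard to assign, because 64.4% of its coding words occur in the pseudogene COX6A1P2.

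Other complex IV subunits lay near the threshold or far from it. COX6B1 was at 418 and 297 RPKM at day 1, 199 and 211 RPKM at day 2, 178 and 265 RPKM at day 3, and 173 and 178 RPKM in co-cultures. Its day 1 and day 2 libraries were above both co-cultures, with a log2 fold change of 1.0 ± 0.27 at day 1 (adjusted p = 0.0531, limma). COX4I1 was at 410.1 and 258 RPKM at day 1, 256 and 285 RPKM at day 2, 266 and 283 RPKM at day 3, and 363 and 291 RPKM in co-cultures. At day 1 COX4I1 straddled co-culture, with a log2 fold change of 0.00 ± 0.26, and both later days lay below both co-cultures, with log2 fold changes of -0.27 ± 0.27 at day 2 and -0.25 ± 0.27 at day 3.

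COX7B, a small membrane subunit, was at 101 and 4.91 RPKM at day 1, 14.2 and 98.9 RPKM at day 2, 21.7 and 4.69 RPKM at day 3, and 41.5 and 12 RPKM in co-cultures. Its groups overlapped in every comparison. COX5A, a subunit on the matrix side, was at 155 and 70.8 RPKM at day 1, 51.7 RPKM in day 2 replicate 2, 48.8 and 37.4 RPKM at day 3, and 56.3 and 34.4 RPKM in co-cultures. It had the lowest log2 fold change of any member between day 3 and day 1, at -1.27 ± 0.45 (adjusted p = 0.203, limma).

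Complex III had 3 tested subunits, all with positive log2 fold changes on every day. CYC1 was at 112 and 123 RPKM at day 1, 82.3 and 88.8 RPKM at day 2, 105 and 97.6 RPKM at day 3, and 64.7 and 74.5 RPKM in co-cultures. No heterokaryon library overlapped co-culture, yet unfused fibroblast replicate 2, at 95.6 RPKM, lay among the heterokaryons. The log2 fold change of CYC1 was 0.75 ± 0.23 at day 1 with an adjusted p of 0.0758, 0.30 at day 2 and 0.54 at day 3. UQCRC1 was at 319.7 and 237 RPKM at day 1, 214 and 202 RPKM at day 2, 177 and 247 RPKM at day 3, and 176 and 170.2 RPKM in co-cultures. UQCRC2, the second core protein, overlapped co-culture on all 3 days.

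Complex I was the most divided at day 1, with 17 of 27 tested subunits positive and a median log2 fold change of 0.26. The highest was NDUFA2, an accessory subunit of the matrix arm, at 63.2 and 39.7 RPKM at day 1 against 6.03 and 29.6 RPKM in co-cultures. Its log2 fold change of 1.80 ± 0.66 had an adjusted p of 0.124 by limma, and the 2 co-cultures stood far apart. The lowest was NDUFA5, also of the matrix arm, at 5.51 and 0 RPKM at day 1 against 3.65 and 9.73 RPKM in co-cultures, with adjusted p = 0.432. NDUFA6 was at 128 and 60.7 RPKM at day 1, 35.2 and 69.8 RPKM at day 2, 70.9 and 47.6 RPKM at day 3, and 45 and 46.1 RPKM in co-cultures, so that day 1 and day 3 lay above co-culture and day 2 did not. The day 1 median of complex I was -0.02 without co-culture replicate 1 and 0.52 without day 1 replicate 2.

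Further complex I subunits differed in how well their day 1 replicates matched. NDUFB8, an accessory subunit of the membrane arm, was at 241 and 356 RPKM against 194 and 145 RPKM in co-cultures, and NDUFB9, of the same arm, at 273 and 211 RPKM against 161 and 107 RPKM. Both pairs of day 1 libraries lay above co-culture, with log2 fold changes of 0.80 ± 0.30 (adjusted p = 0.147, limma) and 0.86 ± 0.30 (adjusted p = 0.129). NDUFA1, a small membrane subunit, was at 239 and 26.3 RPKM at day 1 against 74.5 and 89.3 RPKM in co-cultures, and NDUFS4, of the matrix arm, at 9.90 and 61.2 RPKM against 18.4 and 22.3 RPKM. For these 2 genes the day 1 replicates lay on opposite sides of co-culture.

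Complex I also held the only member called at day 2, a call that is lost with upper quartile scaling. NDUFS8, which carries iron sulfur clusters on the path to ubiquinone, was at 174 and 148 RPKM at day 1, 47.9 and 42.8 RPKM at day 2, 69.9 and 121 RPKM at day 3, and 97.9 and 126 RPKM in co-cultures. Day 1 lay above co-culture, day 2 below it, and day 3 overlapped it. The log2 fold change against co-culture was 0.52 ± 0.31 at day 1 (adjusted p = 0.341, limma), -1.28 ± 0.31 at day 2 (adjusted p = 0.0439) and -0.27 ± 0.32 at day 3 (adjusted p = 0.733). Day 2 was 1.80 ± 0.31 below day 1 on the log2 scale with an adjusted p of 0.0848 and an unadjusted p of 0.000431. None of its coding words occurs in another gene of the human annotation, and mouse transcripts were not searched. NDUFS8 was called in 0 of the 4 fits that leave out 1 library, with adjusted p from 0.145 to 0.244, and in 5 of 9 other settings.

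In complex V, 11 of 12 tested subunits had positive log2 fold changes at day 1, with a median of 0.50, and none was called. ATP5F1B was at 410.1 and 371 RPKM at day 1, 334 and 304 RPKM at day 2, 353 and 193 RPKM at day 3, and 382 and 283 RPKM in co-cultures, with all days overlapping co-culture. ATP5PO was at 163 and 21.8 RPKM at day 1, 57.5 and 143 RPKM at day 2, 103 and 46.6 RPKM at day 3, and 31.8 and 32.2 RPKM in co-cultures. Day 2 and day 3 lay above co-culture, while day 1 had 1 library on either side. Its day 2 log2 fold change of 1.47 ± 0.86 was the highest of that day, with an adjusted p of 0.334.

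ATP5PB, another part of the peripheral stalk, was at 76.6 and 42.8 RPKM at day 1, 63.8 and 81.4 RPKM at day 2, 64.2 and 33.5 RPKM at day 3, and 35.2 and 30.7 RPKM in co-cultures. Day 1 and day 2 lay above both co-cultures. Its day 2 log2 fold change of 1.11 ± 0.41 had an adjusted p of 0.131 by limma, and with upper quartile scaling it was the 1 member called at day 2, higher at 1.56 with an adjusted p of 0.0445.

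ATP5F1D, the delta subunit of the central stalk, showed values at day 2 like those of NDUFS8. It was at 35.8 and 36.1 RPKM at day 1, 4.34 and 13.4 RPKM at day 2, 14.4 and 23.6 RPKM at day 3, and 37.9 and 28.7 RPKM in co-cultures. Day 2 and day 3 lay below both co-cultures and below both day 1 libraries. The log2 fold change at day 2 was -1.95 ± 0.51 with an adjusted p of 0.0503 by limma, just outside the threshold, and -0.80 ± 0.51 at day 3 with an adjusted p of 0.486. The c subunit gene ATP5MC2 had the lowest log2 fold change of complex V at day 1, at -0.40 ± 0.21 with both day 1 libraries below both co-cultures (adjusted p = 0.291).

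**Figure D3:**
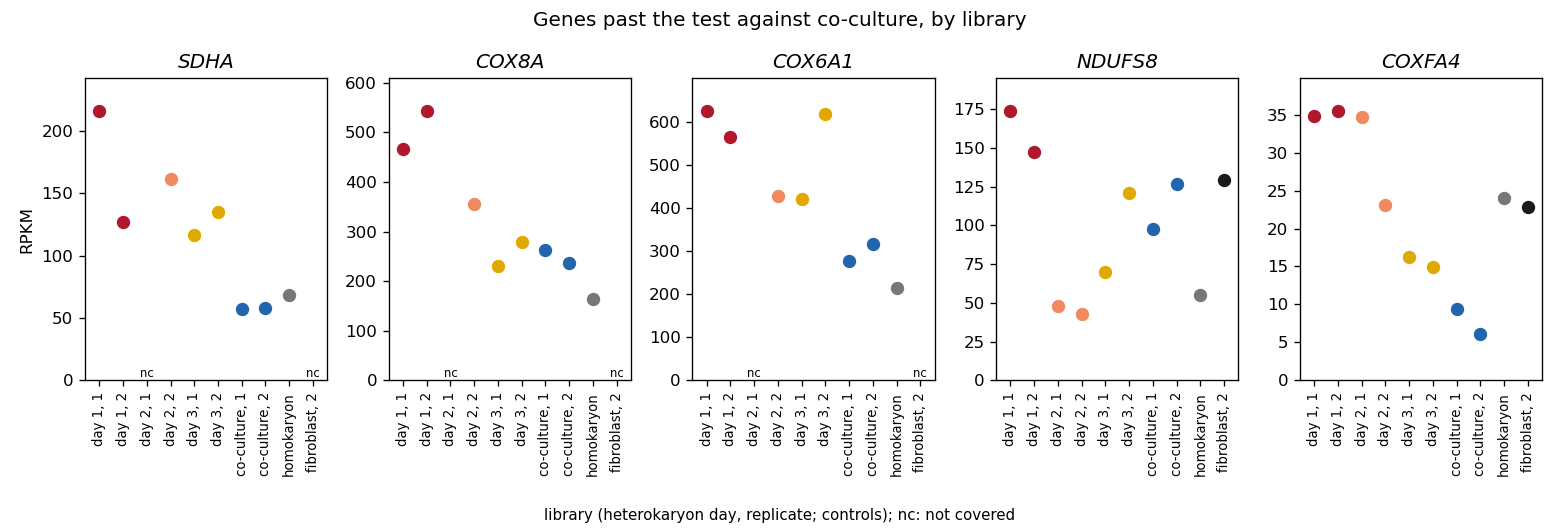
RPKM of SDHA, COX8A, COX6A1 and NDUFS8, the members called against co-culture, and of COXFA4, in each library (horizontal axis); nc marks a library that did not cover the gene. The day 1 points of SDHA, COX8A and COX6A1 lie above both co-culture points, and the day 2 points of NDUFS8, at 47.9 and 42.8 RPKM, lie below them.

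The days differ in which members could be tested, and SDHA, COX8A and COX6A1 were not among those of day 2. At day 2, 1 of 30 members tested was called, and it was lower, against 9.44% of 2416 genes called in either direction and 3.44% called lower, with 5 members at an unadjusted p under 0.05. Of these 30, 24 had a positive log2 fold change, where the share over all genes was 62%, and the members' median was 0.43 against 0.30 over all genes. Both day 2 libraries were above both co-cultures for 12 members, beside 39.7% of all genes, and below both for 3, beside 21.6%. At day 3, 0 of 50 members were called by limma, against 2.91% of 2987 genes, with 2 members at an unadjusted p under 0.05 (SDHA and COX6A1). The members' median at day 3 was 0.14 against 0.07 over all genes, 28 of 50 were positive beside 53.3% of all genes, 9 lay above both co-cultures beside 26.4%, and 7 below both beside 20.6%. The 3 comparisons share the co-culture libraries, so they are not independent of each other.

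Scaling between libraries moved all genes at day 2 and day 3. With values scaled to a common upper quartile, the median of all genes was 0.60 at day 2 and 0.34 at day 3, and the members' median was 0.83 and 0.47. Calls in the higher direction made up 63.6% of all calls at day 2 on the deposited scale, 85.7% with the common upper quartile and 45.4% with quantile normalization. At day 3 the shares were 72.4%, 87.1% and 57.8%. By complex, the day 2 medians were 0.42 in complex I, 0.79 in complex II, 0.30 in complex III, 0.23 in complex IV and 0.76 in complex V, and without day 2 replicate 2 they were -0.36 in complex I and -0.35 in complex IV. The day 3 medians were -0.15 in complex I, which is 0.24 after upper quartile scaling, 0.43 in complex II, 0.27 in complex III, 0.09 in complex IV and 0.48 in complex V. Cycling marker sums were 48.5 and 53.3 RPKM at day 2 and 20.4 and 17.9 RPKM at day 3, and their part in the members' levels was not tested.

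**Figure D4:**
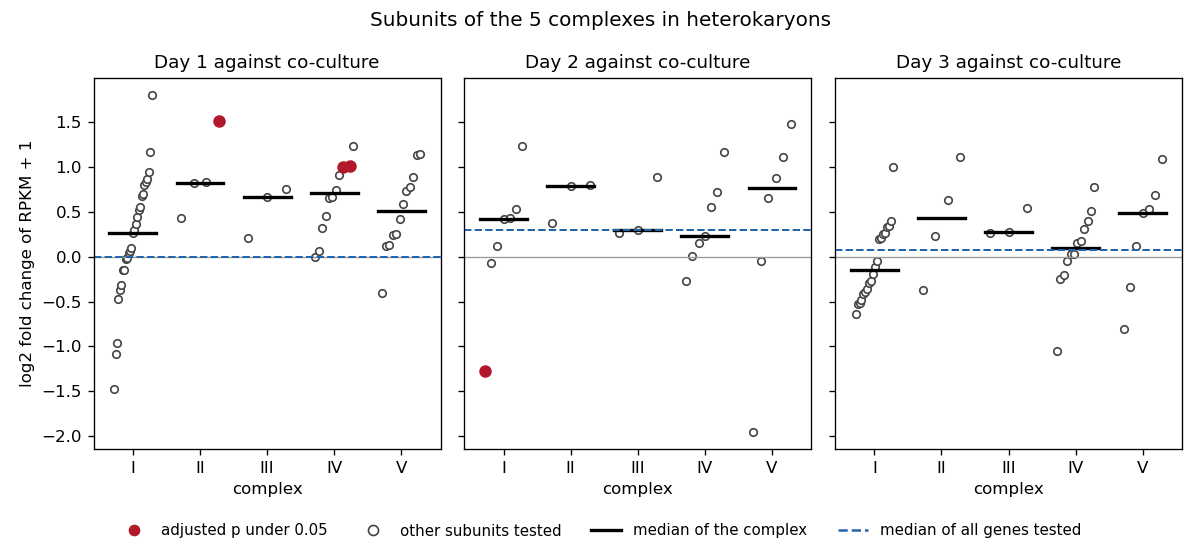
Log2 fold change of RPKM + 1 against co-culture (vertical) for each tested subunit, by complex (horizontal) and day (panels); red points passed an adjusted p of 0.05, black bars are medians of a complex and the dashed line is the median of all genes tested. Medians of the 5 complexes lie above the line at day 1, and complex I lies below it at day 3.

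Between heterokaryon days, no member passed the test. For day 2 against day 1, 0 of 30 members were called beside 0.248% of all genes, with 3 at an unadjusted p under 0.05 (NDUFS8, ATP5F1D and COX6B1, all lower at day 2). For day 3 against day 2, 0 of 30 members and 0 of 2416 genes were called, with NDUFS8 the 1 member at an unadjusted p under 0.05. For day 3 against day 1, 0 of 50 members were called beside 0.201% of all genes, with 6 at an unadjusted p under 0.05 (COX8A, SDHD, COX5A, NDUFS5, COX6B1 and NDUFS8, all lower at day 3). In that comparison 9 of 50 members were positive beside 51.2% of all genes, and the median was -0.35 against 0.01. Cytosolic ribosomal proteins had a median of -0.72 between day 3 and day 1, with 3 of 48 positive. Both day 3 libraries lay above both day 1 libraries for 1 member, beside 21.2% of all genes, and below both for 16, beside 19.5%. For day 2 against day 1 the counts were 1 above, beside 30.3%, and 8 below, beside 17.5%, and 11 of 30 were positive beside 60.6%. For day 3 against day 2 they were 3 above, beside 12.2%, and 5 below, beside 23.3%, and 10 of 30 were positive beside 38.5%.

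The 28 subunits covered in all of these libraries summed to 3679.7 and 2392 RPKM at day 1, 2213 and 2651 RPKM at day 2, 2210.0 and 2151 RPKM at day 3, 2157 and 1819 RPKM in co-cultures, 2123 RPKM in the homokaryon and 1896 RPKM in unfused fibroblast replicate 2. Day 1 replicate 1 stood apart, and day 3 replicate 2 lay below co-culture replicate 1. With the 61 subunits covered at day 1, in co-culture and in the homokaryon, the sums were 9174 and 6524 RPKM at day 1, 5767 and 5045 RPKM in co-cultures and 5010.1 RPKM in the homokaryon. Complex II had sums of 444 and 264 RPKM at day 1, 164 and 157 RPKM in co-cultures and 184 RPKM in the homokaryon, while complex I had 2911 and 1955 RPKM, 1954 and 1804 RPKM, and 1803 RPKM in these groups.

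**Figure D5:**
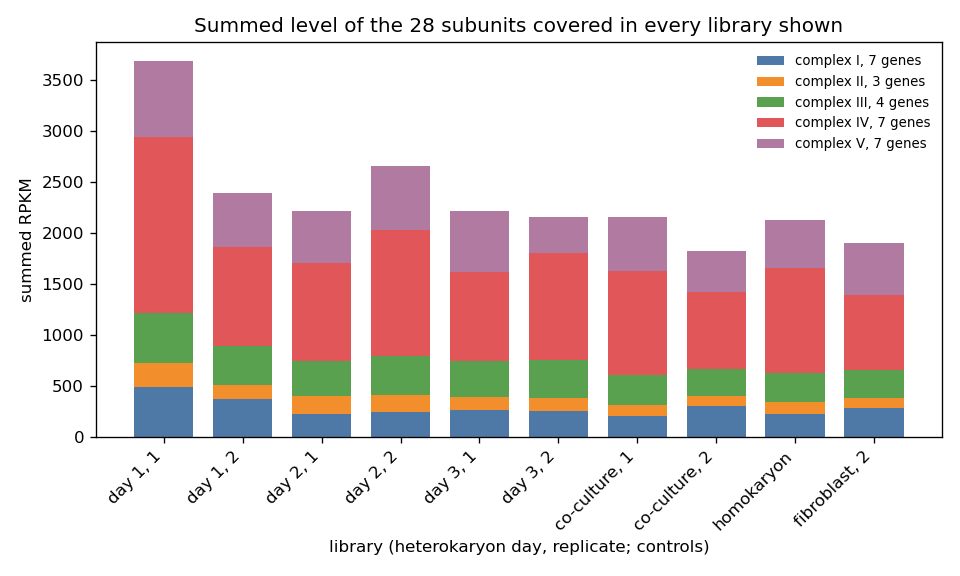
Summed RPKM (vertical, from 0) of the 28 subunits covered in every library shown, stacked by complex, for each library (horizontal). Day 1 replicate 1 reaches 3679.7 RPKM, and the other libraries lie between 1819 and 2651 RPKM.

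In the homokaryon, most measured members lay within 2-fold of the unfused fibroblasts. No test was made with 1 homokaryon library, and ratios are of RPKM + 1. Against unfused fibroblast replicate 2, 3 of 29 members were at least 2-fold higher in the homokaryon, beside 17.9% of all genes, and 1 was at least 2-fold lower, beside 17.3%. The median ratio was 1.13 over members and 0.998 over all genes. COX7B (14 against 2.32 RPKM), NDUFB5 (21.0 against 8.07 RPKM) and UQCRC2 (68.4 against 30.4 RPKM) were the higher ones. NDUFS8 was lower, at 55.2 RPKM in the homokaryon against 129 RPKM in the unfused fibroblasts, a ratio of 0.432. The next lowest were ATP5F1D, at 19.2 against 38.8 RPKM, and the readthrough gene NDUFC2-KCTD14, at 6.73 against 13.1 RPKM, which shares 87.1% of its coding words with NDUFC2, and the next highest were COX7A2, at 87.3 against 47.3 RPKM, and SDHD, at 41.7 against 22.4 RPKM.

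Set against the homokaryon, the share of members 2-fold or more higher was somewhat above that of all genes at day 1. At day 2 and day 3 it was below that of all genes. The ratio of the day 1 mean to the homokaryon was 2-fold or more for 21 of 62 members, beside 27.7% of all genes, and 0.5 or less for 2, beside 18.9%. The highest ratio was that of COX5A, 7.88, with 155 and 70.8 RPKM at day 1 against 13.5 RPKM in the homokaryon. SDHA was 2.48-fold, COX8A 3.08-fold and COX6A1 2.78-fold the homokaryon level. The counts were 4 of 30 at day 2 beside 29.4% of all genes and 6 of 50 at day 3 beside 22.5%, and the median member ratio was 1.46 at day 1, 1.14 at day 2 and 0.999 at day 3, against 1.22, 1.36 and 1.18 over all genes. At least 2-fold lower were 1 member at day 2 and 1 at day 3, beside 12.6% of all genes on either day. Co-culture set against the homokaryon had 7 of 63 members higher, beside 16.4% of all genes, and 2 lower, beside 12.4%.

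Against unfused fibroblast replicate 2, the members' median ratio was 1.70 at day 1, 1.39 at day 2, 1.16 at day 3 and 0.985 in co-culture, while that of all genes was 1.2, 1.35, 1.14 and 1.04. At least 2-fold higher were 10 of 30 members at day 1 beside 25.8% of all genes, 9 of 30 at day 2 beside 26.4%, 2 of 30 at day 3 beside 20.9% and 3 of 31 in co-culture beside 12.5%. At least 2-fold lower were 1 member at day 1 beside 17.1%, 2 at day 2 beside 10.3%, none at day 3 beside 10.3% and none in co-culture beside 8.48%. The highest ratio at day 1 was that of COX7B, 16.3, and the lowest that of NDUFAF8, 0.413. Both average day 1 replicates that lay far apart. COX7B was at 101 and 4.91 RPKM at day 1 against 2.32 RPKM in unfused fibroblast replicate 2. NDUFAF8 was at 32.4 and 2.93 RPKM against 44.2 RPKM. Only SDHAF1, a complex II assembly factor, could be tested against both usable fibroblast libraries, and it was not called on any day or in co-culture. The share of all 527 genes called there was 17.3% at day 1, 15% at day 2, 8.35% at day 3 and 1.9% in co-culture. It was at 9.62 and 12.5 RPKM at day 1, 7.34 and 9.78 RPKM at day 2, 5.85 and 4.62 RPKM at day 3, 0.390 and 19.9 RPKM in co-cultures, and 2.71 and 2.41 RPKM in unfused fibroblasts. All heterokaryon libraries were above both fibroblast libraries, with a log2 fold change of 1.75 ± 1.03 at day 1 (adjusted p = 0.326, limma). NDUFAF8, a complex I assembly factor, was at 32.4 and 2.93 RPKM at day 1, 29 and 39.1 RPKM at day 2, 41.0 and 10.7 RPKM at day 3, and 34.7 and 25.4 RPKM in co-cultures, with overlap on every day.

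Outside the members, a few genes of related mitochondrial lists were called. COXFA4 is the complex IV subunit known before as NDUFA4, so that its current symbol falls outside the rule. It was at 34.8 and 35.5 RPKM at day 1, 34.7 and 23.2 RPKM at day 2, 16.2 and 14.9 RPKM at day 3, and 9.45 and 6.06 RPKM in co-cultures, with 24 RPKM in the homokaryon and 22.9 RPKM in unfused fibroblast replicate 2. All heterokaryon libraries lay above both co-cultures, but those of day 3 lay below the homokaryon and the fibroblasts. The log2 fold change against co-culture was 2.07 ± 0.38 at day 1 (adjusted p = 0.0163, limma) and 1.77 ± 0.38 at day 2 (adjusted p = 0.0269), and in the fits that leave out 1 library the adjusted p ran from 0.0527 to 0.141 at day 1 and from 0.0933 to 0.177 at day 2.

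Of the TCA cycle and pyruvate dehydrogenase genes, 1 of 15 was called at day 1 and 1 of 9 at day 2, in both cases IDH2, the NADP dependent isocitrate dehydrogenase. IDH2 was at 88.1 and 61.6 RPKM at day 1, 48.8 and 64.4 RPKM at day 2, 27.0 and 50.8 RPKM at day 3, and 18.0 and 13.9 RPKM in co-cultures, with a log2 fold change of 2.15 ± 0.39 at day 1 and an adjusted p of 0.0161 by limma. IDH2 was called in 1 of 4 fits without 1 library at day 1 and in 0 of 4 at day 2, and VDAC2, described next, in 1 of 4. The day 1 median of that list was 0.13. Of outer membrane and import genes, 1 of 6 was called at day 1, the channel gene VDAC2, at 142 and 117 RPKM against 40.6 and 43.3 RPKM in co-cultures (log2 fold change 1.60 ± 0.28, adjusted p = 0.0146).

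Of the assembly genes outside the members, 0 of 9 were called at day 1, with 2 at an unadjusted p under 0.05, and 1 of 4 at day 2. Lists this short can hold few calls at the shares over all genes, 9.85% at day 1 and 9.44% at day 2. The call at day 2 was UQCC3, a complex III assembly factor, lower at 1.16 and 1.31 RPKM at day 2 against 5.90 and 10.1 RPKM in co-cultures (log2 fold change -1.97 ± 0.51, adjusted p = 0.0453, limma), and it was called in 0 of 4 fits without 1 library. Of the biogenesis regulators, 0 of 7 were called at day 1, 0 of 4 at day 2 and 0 of 5 at day 3, with none at an unadjusted p under 0.05 on those days. Of the electron carrier genes, 0 of 3 were called at day 1, with none at an unadjusted p under 0.05. Of the mitochondrial ribosomal proteins 5 of 77 were tested at day 1 and 1 was called, MRPL49, at 177 and 215 RPKM against 35.4 and 42.2 RPKM in co-cultures (log2 fold change 2.30 ± 0.27, adjusted p = 0.00803), and in 2 of 4 fits without 1 library. For comparison, 3 of 49 cytosolic ribosomal protein genes and 1 of 28 proteasome genes were called at day 1, all higher.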

How the data were processed

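PolyA RNA was sequenced from 12 samples in 6 groups. The authors deposited 1 value per RefSeq transcript. The unit is not stated in the sources used here; the deposited values have the form of RPKM and are called so. Per the submitters' processing notes the genome builds were hg19 and mm10. No aligner is named. Unfused fibroblast replicate 3 holds no human transcript and was left out. Coding transcripts were joined with RefSeq and summed per gene, and 293 genes beside unnamed accessions were set aside (no member). A missing transcript counted as 0 only up to the accession where a table stops.

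All 5 replicated groups entered 1 fit on log2(RPKM + 1) (limma 3.58.1, R 4.3.3, lmFit and eBayes with trend, two-sided), for genes covered in both groups and at 1 RPKM or more in at least 2 of 10 libraries, with Benjamini-Hochberg adjustment over all genes tested. Fold changes on this scale understate changes of low genes. On simulated data for day 1 against co-culture, run on 3373 genes, 167 of 200 changed genes were called, with 7 wrong calls. Those changes were 2 on the log2 scale in either direction. The simulated spread was set from each gene's level and not taken from the replicates. In the real data, the median absolute log2 difference between the day 1 libraries was 0.71. The members' median log2 fold change at day 1 was 0.45. How often changes of that size are called at that spread was not tested. Fold changes carry the SE of the fit. The homokaryon was compared by ratio only.

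Named were members called against co-culture or between days, the 2 highest of each complex, isoform pairs, the highest and lowest fold change of each comparison, the 3 highest and lowest homokaryon ratios (at 10 RPKM or more) and up to 3 called genes of a related list. Other names (among them UQCRH, COX6B1 at day 1, NDUFB8, NDUFB9, ATP5PB, PODXL, NDUFA1, NDUFS4 and NDUFB5) were chosen after their values were seen. Kinase genes of the RPS6K family were removed from the ribosomal list. 1 item is not reported here. Members and lists were chosen with earlier results of these data known. Words of 50 bases from GENCODE 29 coding sequences on GRCh38 were sought in the human transcripts of that release, and mouse transcripts were not searched. Alternatives changed the pseudocount, filter, scaling, libraries and coverage rule.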

Additional observations from a re-analysis of the deposited data

How the results depend on the processing

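The count of members called was sensitive to the processing. For day 1 against co-culture (3 called) it was 1 without a filter on low values (CYC1, so that none of SDHA, COX8A and COX6A1 was called), 1 after quantile normalization and 1 with genes covered in part (SDHA in both), and 0 after upper quartile scaling and with only the 2 groups in the fit, in which 0 of all genes were called. It ran from 0 to 4 when 1 library was left out. Without day 1 replicate 1 the calls were NDUFA1 and NDUFB4, both lower, and without day 1 replicate 2 they were ATP5MJ, NDUFA1, SDHA and SDHB, all higher, so that the log2 fold change of NDUFA1 was -1.60 in one of these fits and 1.54 in the other. For day 2 against co-culture (1 called) it was 2 with a pseudocount of 5, with a filter at 5 RPKM, after quantile normalization and with only the 2 groups in the fit, and 0 without a filter and with genes covered in part. After upper quartile scaling the 1 call was ATP5PB, higher, in place of NDUFS8, lower. It was 0 in all 4 fits without 1 library. With only the 2 groups in the fit, 1 member (SDHAF1) was called higher against unfused fibroblasts at day 1 and at day 2 where none was in the main comparison. With genes covered in part, 1 member (NDUFV3) was called there at day 1, day 2 and day 3. The cause was not tested. SDHA, COX8A, COX6A1 and NDUFS8 kept their direction in the comparison where they were called under all alternatives run, and the other counts moved by at most 1.5 times. The homokaryon count of members past 2-fold was 3 to 5 over its alternatives against 4, and leaving out a fibroblast library was not run because replicate 2 alone covers these members.

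Deviations of libraries with the same replicate number correlated between -0.106 and 0.0832, so no shared effect of the number was seen. These correlations cannot settle whether the samples were collected in pairs. With the number as a replicate block, 1 member was called at day 1 and 0 at day 2 against co-culture. Depth is unknown, so how far it limits low members could not be read.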
